A study of Mus musculus with 6 samples.

Results

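The C/EBP family was followed in 32D cells through the 8 probe sets annotated to 4 of its genes, out of 45101 probe sets on each array. Members were found by gene symbol and not by a threshold on signal, although the family was chosen with earlier results of these data known. The rule names 6 genes: Cebpa, Cebpb, Cebpd, Cebpe, Cebpg and Cebpz. Cebpa had 1 probe set, Cebpb and Cebpd 2 each, and Cebpg 3, and each of the 8 carried a single symbol. Cebpe and Cebpz had no probe set under their symbols in the annotation used and were not analysed here, and 0 probe sets listed a member together with other symbols. The 6 arrays comprise 3 of 32D cells that expressed miR-9 and miR-9* (construct label C2-MiR-9) and 3 of 32D cells with an empty vector (A1-EV), numbered 1 to 3 in each group. 32D is a mouse myeloid cell line that depends on interleukin-3, and both groups were kept in RPMI with 10% fetal calf serum, penicillin, streptomycin and 10 ng/ml of murine interleukin-3, with no other treatment. The promoter that drives the constructs, and whether each line is 1 clone, are not stated in the sources at hand. The replicates are called independent without a statement on how cultures were separated, so p-values measure the spread between these samples.

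CCAAT/enhancer binding proteins are transcription factors with a basic region that contacts DNA and a leucine zipper through which they pair with each other. In blood formation C/EBP alpha is needed for the step from common myeloid to granulocyte and monocyte progenitors, C/EBP beta for granulocyte production under stress, and C/EBP epsilon for the late granules of neutrophils and eosinophils. C/EBP delta is an acute phase and growth arrest factor, and C/EBP gamma is a short member with little activating power of its own that pairs with the others and with ATF4. Cebpz shares the name but not the leucine zipper: it belongs to the CCAAT-binding factor proteins, whose yeast relative Noc1 takes part in making the large ribosomal subunit.

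The agents under comparison were the 2 strands of 1 microRNA precursor. Their mature mouse sequences, from RefSeq (GRCm38.p6), are printed because their seeds, bases 2 to 8 in capitals, set which messages they can pair with. The 2 seeds differ. Matches to these seeds in C/EBP messages were not looked for. Each mature sequence is encoded by 3 genes on the plus strand: Mir9-1 (miR-9-5p at chr3:88215613-88215635 and miR-9-3p at chr3:88215652-88215673), Mir9-2 (chr13:83738821-83738843 and chr13:83738858-83738879) and Mir9-3 (chr7:79505279-79505301 and chr7:79505318-79505339).
mmu-miR-9-5p (miR-9): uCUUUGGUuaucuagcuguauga
mmu-miR-9-3p (miR-9*): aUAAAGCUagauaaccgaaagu

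Cebpa and Cebpg lie near each other on chromosome 7, with 2 genes of the RefSeq table listed between them (Gm45095 and Gm35611). Their promoters are shown because the member with the largest difference and its neighbour carry different sequence elements. The windows are from RefSeq, 250 bases before to 50 bases after the annotated start, at chr7:35119043-35119342 on the plus strand for Cebpa and chr7:35056517-35056816 on the minus strand for Cebpg (GRCm38.p6). Capitals mark matches on either strand to TTGCG, a core of the C/EBP recognition sequence, to CCAAT, and to TATAAA.
Cebpa promoter: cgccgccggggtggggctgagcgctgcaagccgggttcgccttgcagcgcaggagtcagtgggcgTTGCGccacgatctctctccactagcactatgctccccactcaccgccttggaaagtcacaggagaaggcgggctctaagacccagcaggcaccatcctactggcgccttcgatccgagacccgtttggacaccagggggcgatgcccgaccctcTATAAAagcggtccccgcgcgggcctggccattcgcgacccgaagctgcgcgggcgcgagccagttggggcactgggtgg
Cebpg promoter: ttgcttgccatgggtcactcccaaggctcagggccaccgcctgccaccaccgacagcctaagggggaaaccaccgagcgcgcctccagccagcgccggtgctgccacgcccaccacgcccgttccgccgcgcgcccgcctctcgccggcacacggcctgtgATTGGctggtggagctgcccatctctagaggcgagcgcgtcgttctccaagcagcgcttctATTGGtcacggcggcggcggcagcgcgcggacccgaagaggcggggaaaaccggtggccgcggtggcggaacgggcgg

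The Cebpa window holds 1 TTGCG, starting at -185 from the annotated start, and 1 TATAAA at -30. The Cebpg window holds 2 CCAAT matches, both on the opposite strand, at -89 and -28. Of 32851 mouse promoter windows of this length, 17.4% hold TTGCG, 37.4% CCAAT and 13.6% TATAAA on either strand, and the 3 motifs did not overlap in these windows. A match is a run of letters and not a binding measurement. Of the other members, only Cebpb had a window among these promoters. That window, not printed here, holds 1 TATAAA at 22 from the annotated start, 0 TTGCG and 0 CCAAT.

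All values are MAS5 signals, a summary of the probe pairs of a probe set on a linear scale, with each array scaled by its depositors to a trimmed mean of 100. Median signals of the 6 arrays ran from 12.0 to 15.2. The signal of a probe set also depends on its probes, so differences are tested only within a probe set. Signal order within a list serves only to choose genes to name, and sums over markers only to compare arrays. A fold change here is miR-9/9* minus empty vector in mean log2(signal + 16), a scale that shrinks the changes of dim probe sets. They were tested with limma over the 22492 probe sets whose mean reached a signal of 13.0, with Benjamini-Hochberg adjustment over all of them and a threshold of 0.05. All 8 C/EBP probe sets were above that filter. Same-numbered arrays of the groups deviated together from their group means, so each fit is also given with the replicate number as a block. The identity of the line was checked on 7 myeloid progenitor markers: Ptprc (1508 ± 40.1 in miR-9/9* cells and 1462 ± 156 in empty vector cells, SD, n = 3 each), Csf2rb, Il3ra, Spi1 and Cd33 were above the filter, and Kit and Cd34 were not.

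Cebpa was the member with the largest difference. Probe set 1418982_at read 19.5, 32.6 and 16.03 in miR-9/9* replicates 1 to 3, against 93.9, 66.4 and 24.5 in empty vector replicates 1 to 3. All 3 miR-9/9* arrays were below the same-numbered empty vector array, but the groups overlapped, since miR-9/9* replicate 2 lay above empty vector replicate 3. Within replicate numbers 1, 2 and 3 the miR-9/9* signal was 0.208, 0.491 and 0.654 times the empty vector signal. These ratios rest on 1 dim probe set. Its miR-9/9* signals and that of empty vector replicate 3 were not far above the filter signal of 13.0. Group means were 22.7 ± 8.72 in miR-9/9* cells and 61.6 ± 34.9 in empty vector cells (SD, n = 3 each). In bulk samples, fewer cells that carry a message and less message per cell cannot be told apart.

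The log2 fold change of Cebpa was -0.91. Without the block its SE was 0.342 and its 95% interval -1.69 to -0.13 (limma adjusted p = 1.00). With the block the SE was 0.211 and the interval -1.38 to -0.44 (adjusted p = 0.0651). Cebpa therefore passed in neither fit. Only 20 of the 22492 probe sets had a lower fold change, and 19 of those passed with the block. Ranked by p-value in limma with the block, 545 tested probe sets came before Cebpa. Leaving out replicate number 3, in which Cebpa was lowest in both groups, gave -1.195 with the block (adjusted p = 0.0188), and leaving out number 1 gave -0.55 (adjusted p = 0.239). Each of these blocked fits had 1 residual degree of freedom. Without the block, leaving out empty vector replicate 1 gave -0.60. The size also followed the pseudocount: a pseudocount of 1 gave -1.27 and 1 of 64 gave -0.50 (block adjusted p = 0.0703 and 0.0730).

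**Figure D1:**
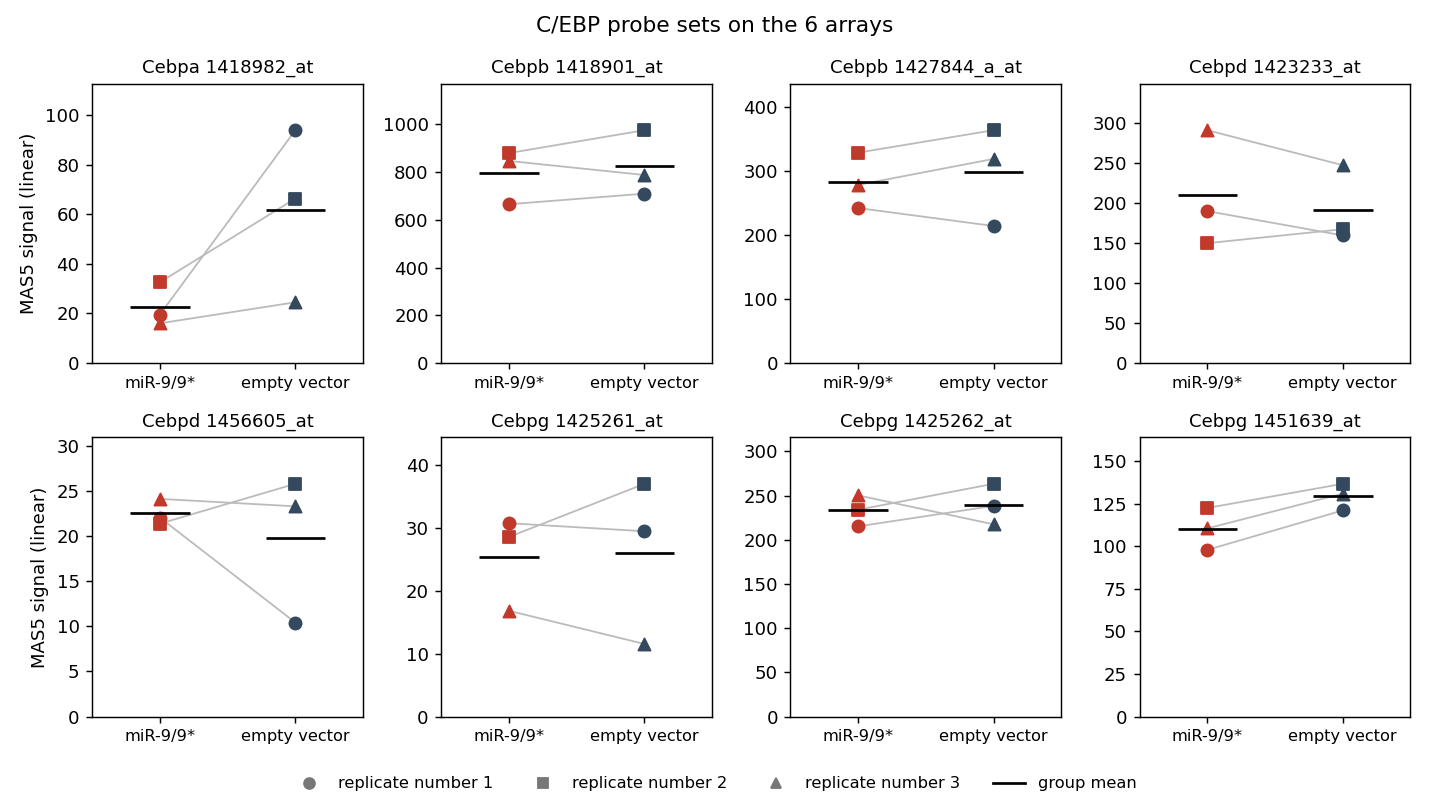
MAS5 signal (linear axis from 0) of the 8 C/EBP probe sets on the 3 miR-9/9* arrays (red, left) and the 3 empty vector arrays (dark, right); symbols and grey lines mark the replicate number and black bars the group means. For Cebpa all 3 lines run higher on the empty vector side, while most other panels have lines of both directions.

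Cebpb, the factor of stress granulopoiesis, differed little between the groups. Probe set 1418901_at read 665, 880 and 847 in miR-9/9* cells, against 710, 975 and 788 in empty vector cells. Probe set 1427844_a_at read 243, 329 and 279 in miR-9/9* cells, against 214, 364 and 319 in empty vector cells. In both probe sets replicate number 2 was highest and number 1 lowest in each group, and the groups overlapped. The log2 fold changes were -0.05 and -0.05, with block intervals of -0.21 to 0.12 and -0.25 to 0.14 (adjusted p = 0.850 and 0.846, and 1.00 for both without the block). The probe sets of Cebpb correlated at 0.868 over the 6 arrays, which share replicate numbers.

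Cebpd, the acute phase member, was highest in replicate number 3 of both groups by its brighter probe set. Probe set 1423233_at read 190, 149.5 and 290.4 in miR-9/9* cells, against 159, 167 and 247 in empty vector cells. Its log2 fold change was 0.10 (block interval -0.11 to 0.32, adjusted p = 0.698, and 1.00 without the block), with 2 numbers higher and 1 lower. The dimmer 1456605_at read 22.02, 21.4 and 24.1 in miR-9/9* cells, against 10.4, 25.8 and 23.3 in empty vector cells, where empty vector replicate 1 stood below the other 5 arrays. Its fold change was 0.13 (block interval -0.23 to 0.50, adjusted p = 0.784, and 1.00 without the block). These probe sets correlated at 0.417 over the 6 arrays.

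The 3 probe sets of Cebpg, the short dimerising member, did not give 1 pattern. Probe set 1451639_at read 97.9, 122 and 110.5 in miR-9/9* cells, against 121, 137 and 131 in empty vector cells. Each miR-9/9* array was below its same-numbered partner, and the groups overlapped by a small margin, 122 in miR-9/9* replicate 2 against 121 in empty vector replicate 1. The log2 fold change was -0.21 (block interval -0.41 to -0.0022, adjusted p = 0.334, and 1.00 without the block). Probe set 1425262_at read 215, 234 and 250.3 in miR-9/9* cells, against 238, 263 and 218 in empty vector cells, a fold change of -0.04 (block interval -0.24 to 0.17, adjusted p = 0.907). The dimmest, 1425261_at, read 30.8, 28.6 and 16.9 in miR-9/9* cells, against 29.5, 37.1 and 11.6 in empty vector cells, a fold change of 0.01 (block interval -0.31 to 0.34, adjusted p = 0.981). Both of these had replicate numbers of each sign. Correlations between the Cebpg probe sets over the 6 arrays were -0.05, 0.368 and 0.443.

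By count, 0 of the 8 C/EBP probe sets passed in limma without the block and 0 with it. The background was 0.00889% of tested probe sets without the block and 1.95% with it, made up of 1.02% higher and 0.934% lower. At an unadjusted p under 0.05 there was 1 without the block (Cebpa), against 3.58% of tested probe sets, and 2 with it (Cebpa and Cebpg 1451639_at), against 14.6%. Lower in all 3 replicate numbers were 2 of the 8, against 16.3% of tested probe sets. Higher in all 3 were 0, for which the share over all tested probe sets was not taken. Non-overlapping groups were seen for 0 of the 8, against 8.38%. The median absolute log2 fold change was 0.08 over the 8 probe sets and 0.10 over all tested, and the signed medians were -0.04 and 0.01. For the 7 probe sets other than Cebpa, fold changes ran from -0.21 to 0.13 and no bound of a block interval lay further from 0 than 0.50. Without the block that bound was 0.65.

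**Figure D2:**
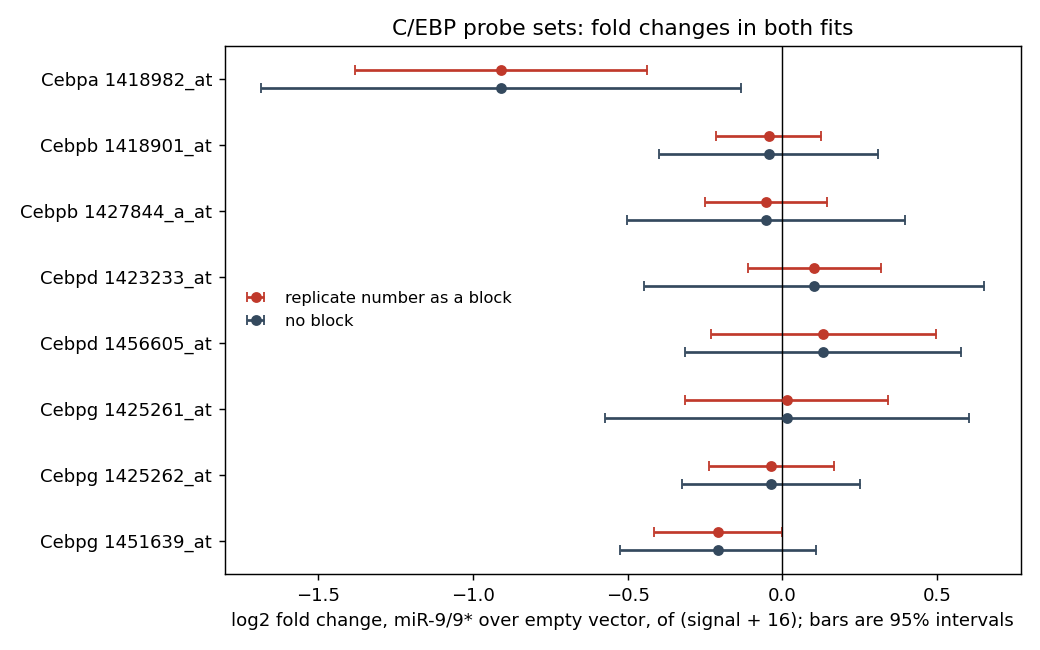
Log2 fold change of (signal + 16), miR-9/9* over empty vector, for the 8 C/EBP probe sets, with 95% intervals from limma with the replicate number as a block (red) and without it (dark). The Cebpa intervals lie below 0 in both fits although its adjusted p of 0.0651 with the block missed the threshold; apart from Cebpg 1451639_at with the block, the other intervals span 0.

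The arrays differed more by replicate number than by construct for most of the family, as they did in the medians over all tested probe sets. The replicate number accounted for 89.1% to 90.2% of the sum of squares of log2(signal + 16) for Cebpb 1418901_at (90.0%) and 1427844_a_at (89.1%), Cebpd 1423233_at (90.2%) and Cebpg 1425261_at (90.01%). Over all tested probe sets the median was 65.7%, and over the 8 it was 68.3%. The group accounted for 49.0% for Cebpa and 55.3% for Cebpg 1451639_at, against a median of 9.09% over all tested probe sets. For Cebpg 1425262_at the replicate number accounted for 28.5% and the group for 3.48%, with most left in the remainder. With 6 arrays these shares are descriptions. The replicate number has more levels than the group, which by itself gives it a larger share. In replicate number 3 of both groups, Cebpa and Cebpg 1425261_at had their lowest signals and Cebpd 1423233_at its highest.

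**Figure D3:**
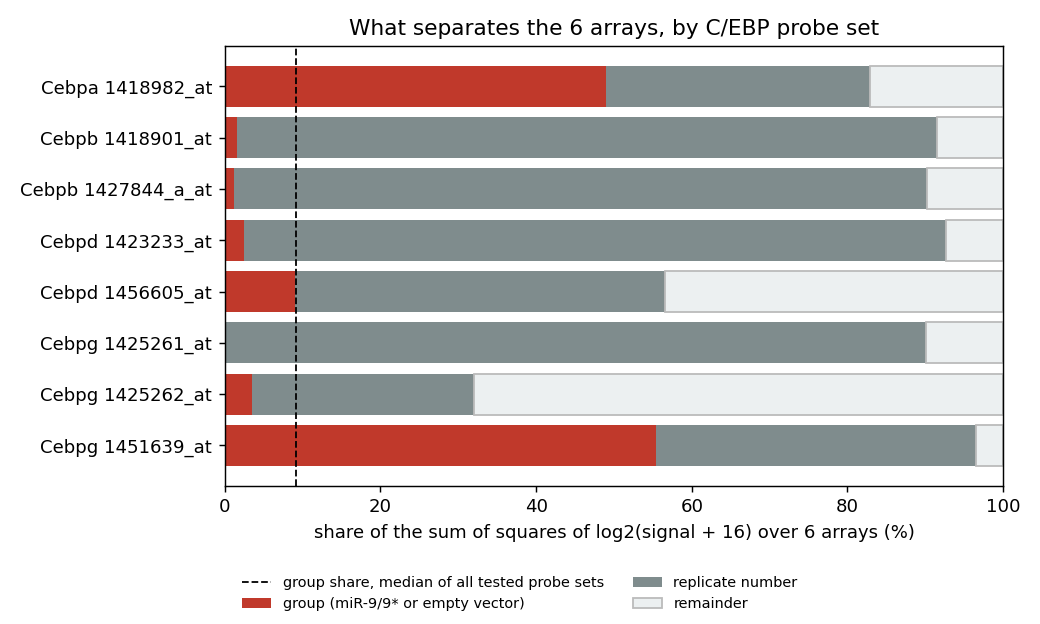
Share (%) of the sum of squares over the 6 arrays that falls to the group (red), to the replicate number (dark grey) and to the remainder (light), for each C/EBP probe set; the dashed line is the median group share over all tested probe sets, 9.09%. Only Cebpa and Cebpg 1451639_at have a group share well to the right of that line.

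The genes whose log2 signals followed each member most closely over the 6 arrays were taken from 10195 genes, 3 for each probe set. For Cebpa they were Gm12992, Mbtps1 and Efcab11, with Pearson correlations from 0.992 to 0.997. For Cebpb they were Sars, Snx2 and Gpm6b by 1418901_at and Rnaseh1, Bcl7b and Utp4 by 1427844_a_at. For Cebpd they were Golga7, Pold2 and Ccp110 by 1423233_at and Aldh3b2, Ppil2 and Dnase1l1 by 1456605_at. For Cebpg they were Taf15, Ercc2 and Wnk1 by 1425261_at, Oaz2, Ankrd9 and Alms1 by 1425262_at, and Phf20l1, 2310039H08Rik and Alg1 by 1451639_at. No gene was shared between probe sets of the same member. With so many genes and 6 arrays, correlations this high are found for every probe set, from 0.967 to 0.998 here.

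Granulocytic genes bound or activated by C/EBP factors were read beside the members. Of 21 listed genes, 15 were above the filter. In limma 0 passed without the block (0 with an unadjusted p under 0.05), and 3 were lower and 0 higher with it (7 with an unadjusted p under 0.05). Over all tested probe sets with the block, 0.934% were lower, 1.02% higher, and 14.6% had an unadjusted p under 0.05. The 3 were S100a8 and S100a9, the subunits of calprotectin, and Ltf, the iron-binding granule protein lactoferrin. The list's median log2 fold change was -0.08, against 0.01 over all tested probe sets. S100a8 read 244, 10.3 and 106 in miR-9/9* cells, against 696, 94.2 and 164 in empty vector cells (log2 fold change -1.36, block adjusted p = 0.0127). S100a9 read 202, 8.03 and 101 in miR-9/9* cells, against 503, 87.7 and 162 in empty vector cells (-1.32, block adjusted p = 0.0150). Ltf read 47.0, 1.23 and 12.4 in miR-9/9* cells, against 92.0, 30.1 and 29.0 in empty vector cells (-0.95, block adjusted p = 0.0201). All 3 were lower in each replicate number while their groups overlapped. Without replicate number 2 the count with the block was 5 of the 15, with 2 higher and 3 lower.

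The order of the arrays was not the same for these genes as for Cebpa. S100a8, S100a9 and Ltf were lowest in miR-9/9* replicate 2, the miR-9/9* array with the most Cebpa signal. On the log2 scale these genes differed most within number 2, whereas Cebpa differed most within number 1. In linear signal they differed most within number 1, as Cebpa did. The log2 contrast rests on their miR-9/9* replicate 2 signals of 10.3, 8.03 and 1.23, which were below the filter signal of 13.0. A link between these genes and Cebpa was not tested. The 3 calls did not hold when dim probe sets were kept in the test (adjusted p = 0.177, 0.191 and 0.214) and without a variance trend (0.121, 0.128 and 0.0907), and those of S100a9 and Ltf also with a pseudocount of 1 (0.0575 and 0.0885). The 2 of the list with the highest mean signal did not pass. The granule protein gene Ngp was at 970.0 ± 985 in miR-9/9* cells and 1283 ± 1073 in empty vector cells. Ngp was lower in all 3 replicate numbers (log2 fold change -0.78, limma block adjusted p = 0.193). The protease gene Prtn3 was at 1051 ± 374 in miR-9/9* cells and 1108 ± 564 in empty vector cells (-0.01, limma block adjusted p = 0.976). Of the 15 tested genes of the list, 10 had a fold change below 0 and 5 above. Mpo, a C/EBP-dependent granule enzyme gene named after its values were seen, read 1629, 126 and 288 in miR-9/9* cells, against 345, 132 and 60.0 in empty vector cells. Its log2 fold change of 1.38 did not pass (block adjusted p = 0.0751), except without replicate number 2 (2.09, adjusted p = 5.43e-08, with 1 residual degree of freedom). Csf3r, the receptor for granulocyte colony stimulating factor and a C/EBP alpha target, was 1 of the 6 listed genes below the filter. It was at 4.43 ± 1.57 in miR-9/9* cells and 8.55 ± 3.49 in empty vector cells. Elane, also below the filter, went the other way, at 10.6 ± 5.66 in miR-9/9* cells and 2.14 ± 1.29 in empty vector cells. Cd14, above the filter, was higher in all 3 replicate numbers and did not pass (log2 fold change 0.58, limma block adjusted p = 0.0860).

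**Figure D4:**
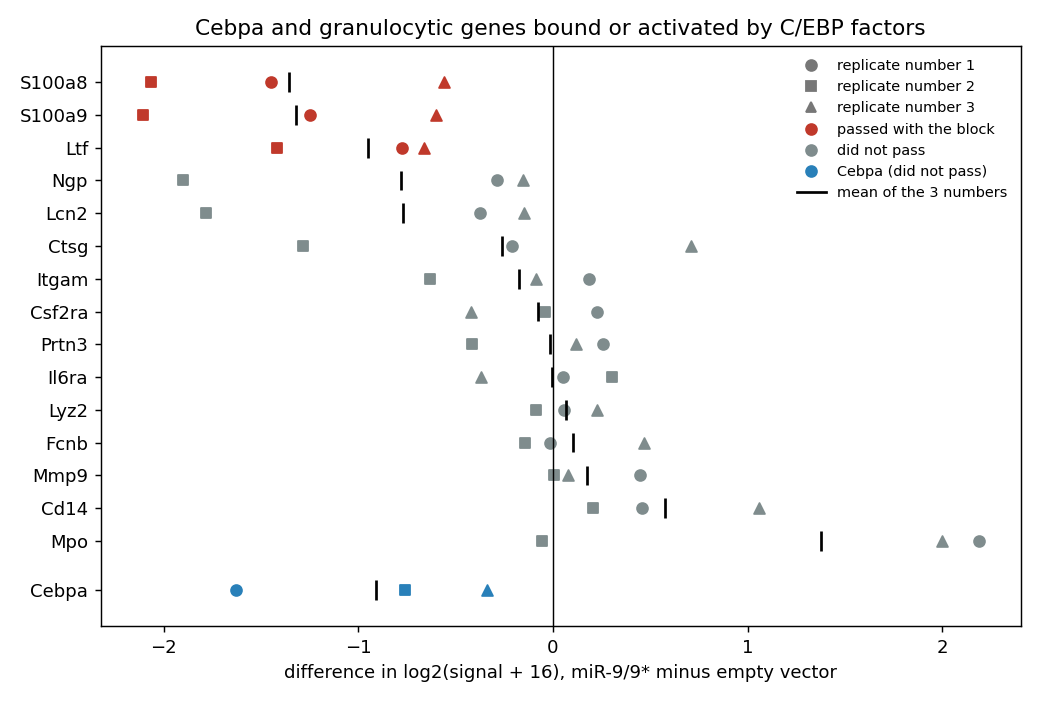
Difference in log2(signal + 16), miR-9/9* minus empty vector, within each replicate number (symbols) and on average (black bars), for the 15 granulocytic genes above the filter and for Cebpa (blue, bottom row). S100a8, S100a9 and Ltf (red) lie below 0 in all 3 numbers and passed with the block; Mpo has the largest positive average, 1.38, with number 2 near 0.

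Marker lists of other blood cells held calls in both directions with the block, where 1.02% of all tested probe sets were higher and 0.934% lower, and 0 without it. The summed signal of 6 late neutrophil markers, 5 of them above the filter and Camp below it, was 2615, 206 and 972 in miR-9/9* cells, against 3887, 971 and 1197 in empty vector cells, and 3 of the 5 were lower with the block. All 6 are also in the granulocytic list, and the 3 are the same S100a8, S100a9 and Ltf. The summed signal of 4 eosinophil markers ran from 275 to 3612 in miR-9/9* cells and from 248 to 1374 in empty vector cells, with 2 of 3 tested markers (Prg2 and Siglecf) higher with the block and Ccr3 below the filter. That of 6 erythroid markers ran from 1218 to 1670 in miR-9/9* cells and from 621 to 909 in empty vector cells, with 3 of 4 tested markers (Gata1, Klf1 and Rhag) higher with the block and the defining genes Alas2 and Slc4a1 below the filter. That of 6 megakaryocyte markers, all above the filter, ran from 1495 to 2846 in miR-9/9* cells and from 1211 to 2260 in empty vector cells, with 3 (Itgb3, Gp9 and Vwf) higher with the block. The brightest markers of the neutrophil, eosinophil and megakaryocyte sums were Ngp, Epx and Itga2b. They did not pass (limma block adjusted p = 0.193, 0.416 and 0.741), so these sums do not measure the calls. Of the tested mast cell and basophil (5), monocyte and macrophage (4) and lymphoid (1) markers, 0 passed in limma in either fit. With an unadjusted p under 0.05 were 0 without the block and 5 with it, against 3.58% and 14.6% of all tested probe sets. The 5 went both ways: Mcpt8, Gata2 and Cd68 were lower, and Cma1 and Adgre1 higher. Mcpt8 read 19.6, 4.89 and 15.4 in miR-9/9* cells, and Cma1 25.2, 1.06 and 5.13 in empty vector cells. Both reached the filter only through their higher group, so their unadjusted p-values are no support for a difference. Csf2rb, the shared signalling chain of the interleukin-3 receptor, was lower with the block (log2 fold change -0.35, adjusted p = 0.0475), a call lost without replicate number 1 (0.305) or 2 (0.205), without a filter (0.211) or a variance trend (0.204), with a pseudocount of 1 (0.0520) and after median centring (0.0610). The eosinophil, erythroid and megakaryocyte calls were not followed through the alternatives. Over all probe sets, calls with the block fell from 439 to 54 with no filter and to 46 without a variance trend. The part of these markers in the Cebpa values was not tested.

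The other lists around the family gave 0 passing genes in either fit. Over all tested probe sets, 0.00889% passed without the block and 1.95% with it. At an unadjusted p under 0.05 in limma the shares were 3.58% and 14.6%. With a share of 1.95%, 0 calls in lists this short are not a result about them. Of 11 bZIP factors that pair with or resemble C/EBP proteins, 7 were above the filter, with 0 at an unadjusted p under 0.05 in limma without the block and 1 with it (median log2 fold change -0.03). The 2 with the highest mean signal were Atf4, a dimer partner of C/EBP gamma, at 1814 ± 243 in miR-9/9* cells and 1843 ± 158 in empty vector cells, and Batf, at 234 ± 41.4 in miR-9/9* cells and 237 ± 66.8 in empty vector cells (block adjusted p = 0.918 and 0.996). Ddit3, which encodes the C/EBP-related stress factor CHOP, was at 149 ± 72.2 in miR-9/9* cells and 168 ± 129 in empty vector cells (block adjusted p = 0.942). Of 18 regulators of C/EBP transcription, translation and stability, 13 were above the filter, with 0 and 3 at an unadjusted p under 0.05 (median 0.03). Calr, which encodes calreticulin, a binder of C/EBP messages, was at 3397 ± 505 in miR-9/9* cells and 3510 ± 107 in empty vector cells, and the progenitor factor Myb at 2554 ± 303 in miR-9/9* cells and 2115 ± 274 in empty vector cells (block adjusted p = 0.850 and 0.130).

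Inflammatory and acute phase genes activated by C/EBP beta and delta were mostly dim, with 6 of 14 above the filter and a median of 0.11. At an unadjusted p under 0.05 in limma there were 0 and 1, against 3.58% and 14.6% of all tested probe sets. The cytokine genes Il6 (168 ± 82.2 in miR-9/9* cells and 125 ± 53.8 in empty vector cells) and Tnf (34.5 ± 15.7 in miR-9/9* cells and 44.5 ± 15.7 in empty vector cells) had the highest mean signals (block adjusted p = 0.284 and 0.351). All 15 ribosome assembly factors listed around Cebpz, not all of them particular to the large subunit, were above the filter, with a median of 0.0017. At an unadjusted p under 0.05 in limma there were again 0 and 1, against the same shares. The nucleolar protein genes Fbl (1935 ± 178 in miR-9/9* cells and 1857 ± 301 in empty vector cells) and Nop56 (1581 ± 119 in miR-9/9* cells and 1656 ± 319 in empty vector cells) did not pass (block adjusted p = 0.796 and 0.841). Cebpzos, a separate gene whose annotated span overlaps that of Cebpz, was measured by 1435755_at and is no member. It read 88.3, 102.1 and 128 in miR-9/9* cells, against 102.1, 98.8 and 147 in empty vector cells (log2 fold change -0.10, block adjusted p = 0.699).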

How the data were processed

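The deposited values are MAS5 intensity signals on a linear scale from 1-colour Affymetrix arrays, made by the authors with MAS5 (version not recorded), per the submitters' processing notes; per the labels' protocols, 6 ug of total RNA per sample went into biotin-labelled cRNA. Names came from a 2016 platform annotation, matched on whole symbols. Groups and replicate numbers came from the sample titles.

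Signals were transformed to log2(signal + 16) with no further normalization. Probe sets other than 64 controls with a mean at or above the median of all (log2 4.86) were tested with limma 3.58.1 in R 4.3.3 (variance trend, two-sided, Benjamini-Hochberg over 22492 probe sets), without a block (4 residual degrees of freedom) and with the replicate number as a block (2). The pairing is read from the data: deviations of same-numbered arrays correlated at 0.492, 0.599 and 0.687. A listed gene is represented by its brightest single-symbol probe set. Named are all members, the genes of each list that passed and its 2 brightest, and the 3 genes most like each member. Ddit3, Mpo, Csf3r, Elane, Cd14 and Cebpzos were added outside that rule. Cell type markers are named where they passed, lay below the filter, checked the line or were the brightest of a sum. Mcpt8, Gata2, Cma1, Adgre1 and Cd68 are named for an unadjusted p under 0.05 in limma with the block. Members and lists were chosen with earlier results of these data known. Scripts were tested on simulated data. Alternatives were other pseudocounts, no filter, quantile normalization, median centring, no variance trend, 1 probe set per gene, and leaving out arrays or replicate numbers.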

Additional observations from a re-analysis of the deposited data

How the results depend on the processing

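Cebpa stayed negative under all 24 alternatives run, from -1.32 to -0.50, and Cebpg 1451639_at under all 22, from -0.28 to -0.14. Of C/EBP probe sets, 1 (Cebpa) passed without replicate 3 with the block, a fit with 1 residual degree of freedom, and 0 under every other alternative run. The count over all probe sets was 2 without the block (2 higher, 0 lower; 805 with an unadjusted p under 0.05 in limma) and 439 with the replicate block. Without the block it was 0 with a pseudocount of 64 (802 unadjusted), 0 with no filter (1944), and 6 with 1 probe set per gene. With the block it was 385 and 435 with pseudocounts of 1 and 64, 54 with no filter, 411 after quantile normalization, 404 after median centring, 46 without a variance trend, 302 with 1 probe set per gene, and 229, 511 and 367 without replicates 1, 2 and 3. Leaving out single arrays gave 0 to 7.

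The block changed the calls of S100a8, S100a9, Ltf, Csf2rb, Prg2, Siglecf, Gata1, Klf1, Rhag, Itgb3, Gp9 and Vwf among the named listed genes and markers, which passed with it and not without it, and of no C/EBP probe set. Fold changes near 0 changed sign in single alternatives, none of them past the threshold there. Leaving out single arrays moved Cebpb 1418901_at between -0.14 and 0.0804, 1427844_a_at between -0.26 and 0.10, Cebpd 1423233_at between -0.14 and 0.303 and 1456605_at between -0.0741 and 0.256, Cebpg 1425261_at between -0.26 and 0.208 and 1425262_at between -0.0998 and 0.0295, Cebpzos between -0.231 and 0.0567, and Csf2rb between -0.721 and 0.0178. Without a replicate number, with the block, the reversed values were 0.0057 for Cebpb 1418901_at (number 2), 0.013 for 1427844_a_at (3), -0.0656 for Cebpd 1456605_at (1), -0.11 for Cebpg 1425261_at (3), and 0.015 and 0.026 for Cebpg 1425262_at (1 and 2). Cebpg 1425261_at was also at -0.0030 with a pseudocount of 64 and at -0.0060 after median centring, in both fits. The number of arrays, 3 a group, limits the precision. The cause of these shifts was not tested.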
